A study of Mus musculus with 2 samples.

Results

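The distal miRNA cluster of the Dlk1-Dio3 domain is a run of hairpin genes on mouse chromosome 12 that begins with Mir379 and ends with Mir3072. Its members were taken by position alone, as every row of the deposited tables inside one fixed window of chromosome 12 (assembly mm10). This gave 38 of 1973 rows, from 109709060 to 109747960, a span of 38.9 kb. Of these rows, 34 are annotated on the plus strand and were read by the counts on their own strand. The other 4 are annotated on the minus strand (Gm24321, Gm25252, Gm25750 and Mir299b) and lie opposite Mir409, Mir376a, Mir380 and Mir299a, so their opposite-strand counts were taken as the counts of those miRNAs. The libraries were made from total RNA of whole fetal liver of the B6NCrl strain at embryonic day 16.5, in 1 group with 2 biological replicates. Each replicate was a pool of livers from male and female embryos. For replicate 2 the labels give 41 embryos, and for replicate 1 they give no number. No genotype, treatment or second stage was sampled, so the values are levels in one tissue at one stage.

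The Dlk1-Dio3 domain is imprinted: its protein-coding genes are expressed from the paternal chromosome, and its long noncoding RNAs and miRNAs from the maternal one. The distal cluster, often called the miR-379/miR-410 cluster, is found in placental mammals, and its hairpins are thought to be cut from long transcripts that run through it. It has been studied mostly in brain and placenta, and mice that lack it have trouble adapting their liver metabolism to fasting at birth. A miRNA recognises its target messenger RNAs mainly through the seed, bases 2 to 8 from its 5′ end. A hairpin can give a mature miRNA from either arm, and the counts here are per hairpin, so the arms are not separated.

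The cluster is often named after Mirg, a long noncoding RNA gene. In the annotation used for positions, Mirg runs from 109729764 to 109749460, and 24 of the 38 members lie before its start. The other 14 lie inside it: 4 in an exon (Mir134, Mir485, Mir377 and Mir410), 5 in an intron (Mir453, Mir154, Mir496a, Mir541 and Mir409) and 5 across an exon edge (Mir382, Mir668, Mir412, Mir369 and Mir3072). The name Mirg therefore does not cover most of these genes as annotated, and they are called the distal cluster here.

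Mature sequences were found in the RefSeq table (build GRCm38.p6) for 37 members, 69 sequences in all. Gm27379 was the member without one. Mir376c, Mir487b, Mir539 and Mir485 had an entry for a single arm, and Mir453 had a single sequence without an arm name. The arms with an entry are shown for the 6 most abundant hairpins, because these hairpins carry most of the cluster's counts. For Mir487b this is the 5′ arm alone, and the counts do not tell which arm they came from. The sequences run 5′ to 3′, and the capitals mark the seed.
miR-411-5p: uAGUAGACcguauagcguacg
miR-411-3p: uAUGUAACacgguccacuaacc
miR-409-5p: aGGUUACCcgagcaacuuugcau
miR-409-3p: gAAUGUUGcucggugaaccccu
miR-487b-5p: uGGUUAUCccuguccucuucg
miR-376a-5p: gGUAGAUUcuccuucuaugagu
miR-376a-3p: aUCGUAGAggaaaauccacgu
miR-379-5p: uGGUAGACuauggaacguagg
miR-379-3p: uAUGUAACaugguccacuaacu
miR-154-5p: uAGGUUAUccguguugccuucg
miR-154-3p: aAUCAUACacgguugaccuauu
Among these arms, miR-379-3p and miR-411-3p have the same seed, AUGUAAC, and the other 9 seeds occur in no second arm of the list.

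The 69 mature sequences held 64 different seeds. Among these sequences, 5 seeds were shared by 2 members each, which involved 9 members. Arms without an entry could not be compared, so more seeds and members could be shared. The remaining arms found to share a seed are shown to let the seeds be compared, again with the seed in capitals.
miR-1193-5p: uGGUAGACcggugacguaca
miR-758-5p: uGGUUGACcagagagcacacg
miR-1197-5p: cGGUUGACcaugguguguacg
miR-410-5p: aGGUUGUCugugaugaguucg
miR-494-5p: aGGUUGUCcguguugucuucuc
miR-453: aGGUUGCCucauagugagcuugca
miR-496a-5p: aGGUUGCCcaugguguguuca
The first of these has the seed of miR-379-5p, GGUAGAC. Of the 64 seeds, 12 also occur in a mature miRNA of a gene outside the member list; examples are miR-329-3p with miR-362-3p and miR-410-3p with miR-344d-3p. The letters AGGUU, chosen after the sequences were seen and searched in the mature strand only, occur in 10 of the 69 sequences (14.5%), each in a different member, and in 2.93% of all 1738 mouse mature sequences in the table. Mature sequences of the cluster began with C in 5.80% of cases, against 20.4% of all mouse mature sequences, and with A in 37.7% against 25.5%. Their median GC content was 47.6%, against 52.2% over all mouse mature sequences.

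The gene-strand counts summed to 5930074 in replicate 1 and 5102289 in replicate 2, and a count of 1 is worth 0.169 and 0.196 CPM, the unit of level used here, in which every library's gene-strand total is set equal. Where no read was counted, up to 3 counts are allowed for, which is 0.506 CPM in the first library and 0.588 CPM in the second. These limits, like the intervals given for shares, reflect counting alone, because reads copied in PCR do not count separate molecules. The tissue label was checked against marker miRNAs. Mir122, the miRNA that defines hepatocytes, was at 213270 and 214560 CPM, while the 4 neural marker miRNAs summed to 114 and 134 CPM. That sum came from Mir137 and Mir132 alone, as Mir124a-1 and Mir9-2 had 0 counts. Both of the latter have further gene copies, and reads that match several copies are outside the counts, so the sum could be too low. In whole tissue, fewer cells of a type and less RNA per cell cannot be told apart.

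The distal cluster made up a large part of the reads counted to miRNA genes in fetal liver. Its members held 927085 counts in replicate 1 and 767068 in replicate 2, equal to 15.6% and 15.0% of the gene-strand total (15.3% ± 0.42, SD, n = 2). That total leaves out reads that match several places in the genome, 28.1% and 28.2% of all tallied reads. How the share would change with them was not tested. The counts taken from minus-strand rows are not in that total either. With those rows replaced in the total too, the shares were 15.0% (95% Clopper-Pearson interval 14.98% to 15.04%) and 14.5% (14.43% to 14.49%), a mean of 14.7% ± 0.387. The intervals do not overlap, so the pools differed by more than counting error, and by less than 1 percentage point.

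Detection was broad within the cluster. Of the 38 members, 35 reached 1 CPM in both libraries (92.1%), compared with 20.3% of all rows in the tables. At 100 CPM in both libraries there were 30 members (78.9%, against 9.12% of all rows). At 1000 CPM there were 17 (44.7%, against 4.31% of all rows). Only 27 rows of the whole table reached 10000 CPM in both libraries, and 6 of them were members of this cluster. The median member stood at 718 CPM, whereas the median row that was detected at 1 CPM stood at 73.7 CPM and the median of all rows was 0. Rows outside the Dlk1-Dio3 windows were read by their annotated strand in these counts.

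Mir411, a neighbour and relative of Mir379, was the most abundant member. It lies at 109710175 to 109710256, before Mirg, and held 154651 counts in replicate 1 and 147080 in replicate 2, or 26079 and 28826 CPM (27453 ± 1943, SD, n = 2). Both of its values lay above those of every other member, and it alone gave 17.9% ± 1.76 of the cluster's counts.

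Mir409 ranked next. It lies in an intron of Mirg at 109743158 to 109743236, was read opposite Gm24321, and held 133886 and 92537 counts, or 22578 and 18136 CPM (20357 ± 3140). Mir487b, at 109727333 to 109727414, had 97529 and 72687 counts, or 16446.5 and 14246 CPM. Mir376a, at 109723781 to 109723848 and read opposite Gm25252, had 76082 and 80760 counts, or 12830 and 15828 CPM. The order of Mir487b and Mir376a was opposite in the 2 libraries, so the order of that pair is not settled, while both values of Mir409 lay above all values of this pair. Hairpins of the miR-376 group are known substrates of adenosine-to-inosine editing, and the counts do not separate edited from unedited reads.

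The remaining 2 members above 10000 CPM in both libraries were close between the pools. Mir379, which opens the cluster at 109709060 to 109709125, was at 11717 and 11596 CPM (11657 ± 85.1). Mir154, in an intron of Mirg at 109738433 to 109738498, was at 10258 and 10216 CPM (10237 ± 29.6). Both Mir379 values exceeded both Mir154 values, and neither gene differed between the libraries past the exact binomial test described with the comparison of the pools.

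Below these, 6 members completed the 12 most abundant. Mir369, whose 3′ arm has been studied at AU-rich elements, was at 9557 and 8885 CPM and Mir541 at 8534 and 9318 CPM. These ranges overlap. Mir382 followed at 8398 and 7367 CPM and Mir381 at 5279 and 4751 CPM. Mir1193 was at 4289 and 3566 CPM, and Mir299a, read opposite Mir299b, at 4026 and 3425 CPM, again with overlapping ranges. The drop from Mir382 to Mir381 was larger than the spread of either gene.

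The 3 most abundant members gave 41.2% ± 0.657 of the cluster's counts, the 6 most abundant 64.8% ± 1.31 and the 12 most abundant 90.1% ± 0.725. At the other end, the 21 members with a mean under 1000 CPM gave 3.61% ± 0.34 together. In the order of all 38 means, the ranges of neighbours overlapped in 15 of 37 pairs, and in 3 of 11 pairs among the 12 highest. Overlap was thus less frequent among the 12 highest than over the whole order. Below them, most of the overlaps lay in the middle of the order, from Mir300 to Mir377, and not at the lowest levels.

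**Figure D1:**
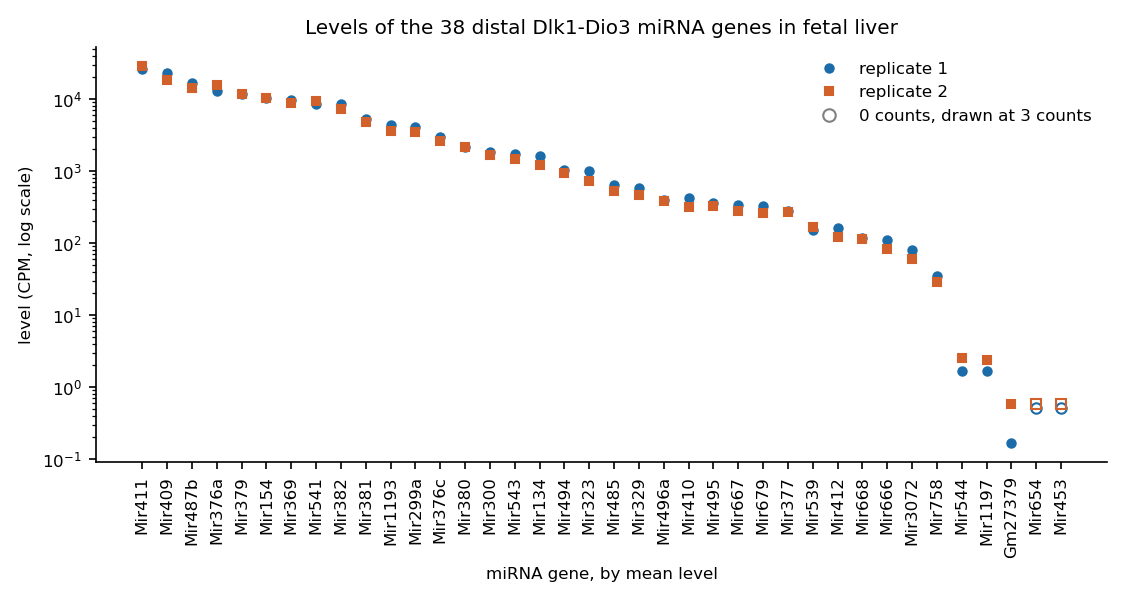
Level of each of the 38 distal cluster genes in CPM (log scale), ordered by mean level, with circles for replicate 1 and squares for replicate 2; open symbols are counts of 0 drawn at 3 counts. Levels fall from 27453 CPM for Mir411 to 0 counts for Mir654 and Mir453, and the 2 libraries lie close together for most genes.

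Members between these extremes include miRNAs known best from neurons. Mir134, which restrains dendritic spine growth by repressing Limk1, was at 1613 and 1226 CPM, and its replicate 1 value lay above its replicate 2 value by more than counting error. Mir485, known for repressing the synaptic vesicle protein SV2A, was at 581 ± 83.1 CPM, and Mir329, which is induced by neuronal activity, at 518 ± 75.5 CPM. All 3 exceeded the sum of the neural marker miRNAs, 114 and 134 CPM, in both pools. Because that sum came from Mir137 and Mir132 alone and could be too low, the comparison does not show how much neural signal the tissue held.

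Also in this middle range, Mir380, read opposite Gm25750, was at 2159 and 2137 CPM (2148 ± 15.4). Mir376c was at 3008 and 2581 CPM, Mir300 at 1840 and 1674 CPM, and Mir543 at 1700.5 and 1488 CPM. Mir494 was at 995 ± 72.0 CPM and Mir323 at 855 ± 191 CPM. A lower group from Mir496a (389 ± 9.22 CPM) through Mir410 (371 ± 71.0), Mir495 (344 ± 28.4), Mir667 (307 ± 41.7) and Mir679 (293 ± 44.9) to Mir377 (276 ± 2.78) had overlapping ranges at each step of its order.

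Mir539 (160 ± 12.9 CPM), Mir412 (141 ± 27.6), Mir668 (115 ± 2.39), Mir666 (96.3 ± 20.3) and Mir3072 (70.4 ± 14.7) lay near or below 100 CPM, and Mir758 was at 34.6 and 28.6 CPM. Then the levels broke off. Mir544 had 10 and 13 counts and Mir1197 had 10 and 12, all between 1 and 3 CPM, and the next gene above them, Mir758, had 205 and 146 counts.

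Only 3 members were below 1 CPM in both libraries. Gm27379, an annotated hairpin gene without a RefSeq mature sequence, had 1 and 3 counts, and Mir654 and Mir453 had 0 in both. The values of Mir654 and Mir453 are thus at most 0.506 and 0.588 CPM by counting error, and absence cannot be shown at this depth. Among the detected members, the highest mean exceeded the lowest by 13596-fold. The size of that fold is imprecise, because the lowest, Mir1197, had only 10 and 12 counts.

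Level did not follow position along the cluster. Before the start of Mirg, 22 of 24 members were detected at 1 CPM in both libraries, and they gave 59.7% and 62.1% of the cluster's counts (60.9% ± 1.73). Within Mirg, 13 of 14 were detected, and they gave 39.1% ± 1.73. Over the 35 detected members, the log2 of the mean level had a Pearson r of 0.03 and a Spearman rho of -0.06 with the distance from the start of Mirg. The values for hairpin GC content, which ranged from 29.1% to 72.3%, were -0.30 and -0.35, and those for hairpin length -0.27 and -0.15. These are descriptions across genes that share the same libraries.

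Hairpins that lie almost end to end differed widely in level. The median gap between neighbours was 590 bases, and 24 of 37 neighbouring pairs were separated by fewer than 1000 bases. In 19 of those pairs both genes had more than 3 counts in both libraries. The same gene was the higher one in both libraries in 19 of 19, and the fold was 10 or more in both libraries in 12 of them. The order of close neighbours was thus the same in both pools. These folds compare counts of different sequences within a library.

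Close neighbours alternated in level at the distal end of the cluster. Mir409 and Mir412 are 52 bases apart, and Mir409 was 141-fold and 149-fold higher in replicates 1 and 2. Mir412 and Mir369 are 49 bases apart, and Mir369 was 59.5-fold and 73.1-fold higher. The next gap, from Mir369 to Mir410, is 218 bases, and Mir369 was 22.7-fold and 27.7-fold higher. Mir412, at 952 and 620 counts, thus lay between hairpins that were among the 7 most abundant of the cluster, and the reads were counted on the same strand for all of these genes.

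Wider steps were found before the start of Mirg. Mir1197 lies 71 bases before Mir323, which was 587-fold and 306-fold higher, and 453 bases after Mir380, which was 1280.2-fold and 909-fold higher. Because Mir1197 had only 10 and 12 counts, the size of those folds is imprecise. Mir679 and Mir1193 are 20 bases apart, and Mir1193 was 13.2-fold and 13.6-fold higher. Mir666 and Mir543 are 74 bases apart, and Mir543 was 15.4-fold and 18.2-fold higher. Mir487b exceeded Mir539, 714 bases further on, by 109-fold and 84.2-fold.

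**Figure D2:**
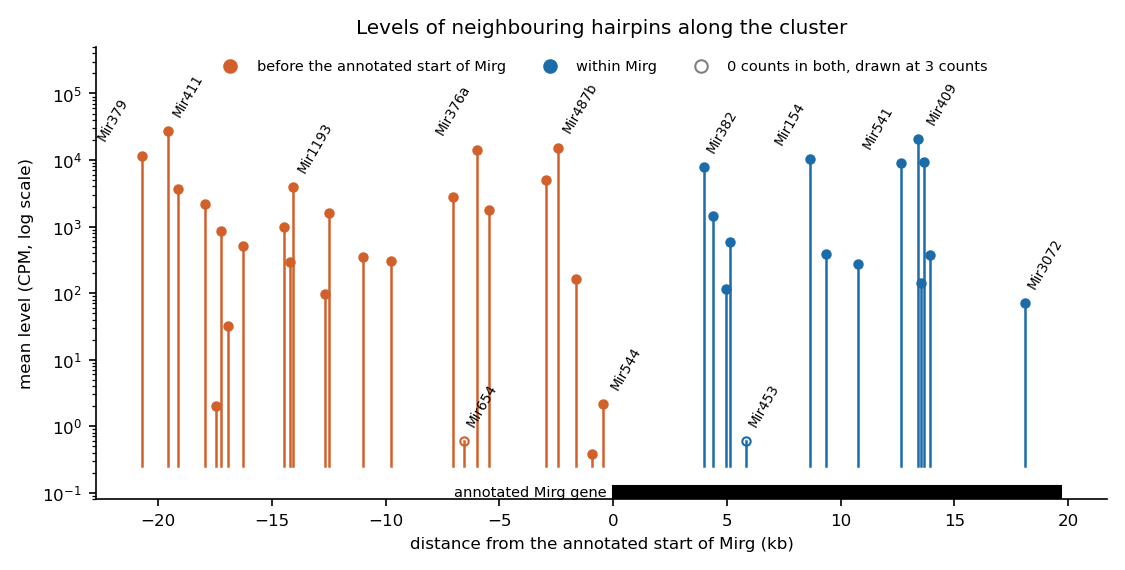
Mean level of each member in CPM (log scale) against its distance from the annotated start of Mirg in kb, with orange stems before that start, blue stems within Mirg and open symbols for 0 counts drawn at 3 counts. High and low hairpins alternate along the 38.9 kb, and 24 of the 38 members lie before the start of Mirg.

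Members related in sequence were also compared. The most alike pair of hairpins was Mir543 and Mir495, identical in 81.5% of aligned columns, and Mir543 was 4.66-fold and 4.59-fold higher. Mir494 and Mir154 were 80.6% identical, and Mir154 was 9.81-fold and 10.8-fold higher. Mir154 and Mir410 were 76.1% identical, and Mir154 was 24.4-fold and 31.9-fold higher. These pairs cover a wide range of folds. At its low end were Mir382 and Mir154 (77.6% identical), where Mir154 was 1.22-fold and 1.39-fold higher. Less alike pairs went beyond both ends of that range. Mir494 was 1.06-fold and 1.31-fold higher than Mir323 (73.6% identical). Mir411 was 754-fold and 1007-fold higher than Mir758 (73.5% identical).

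Mir300 and Mir381 (77.6% identical) are 2430 bases apart, and the 3′ arms of this pair and of Mir543 and Mir495 are shown because these alike hairpins have different seeds, given in capitals.
miR-300-3p: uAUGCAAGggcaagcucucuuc
miR-381-3p: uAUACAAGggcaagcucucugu
miR-543-3p: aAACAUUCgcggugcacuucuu
miR-495-3p: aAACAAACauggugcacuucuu
Mir381 exceeded Mir300 by 2.87-fold and 2.84-fold, a ratio that moved little between the libraries.

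The shared seeds joined members of unequal level. Mir379 and Mir411, 77.9% identical as hairpins, share the 3′ seed AUGUAAC, and their hairpins together held 37796 and 40423 CPM. Mir411 was 2.23-fold and 2.49-fold higher than Mir379. Mir379 and Mir1193 share the 5′ seed GGUAGAC and summed to 16006 and 15163 CPM, with Mir379 2.73-fold and 3.25-fold higher. Since arms are not separated, these sums are those of the hairpins and not of the arm that carries the seed.

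The other seed groups were less abundant. Mir494 and Mir410 share GGUUGUC and summed to 1467 and 1265 CPM, with Mir494 2.48-fold and 2.94-fold higher. Mir496a and Mir453 share GGUUGCC, and the group's 396 and 383 CPM came from Mir496a alone, as Mir453 had 0 counts. Mir758 and Mir1197 share GGUUGAC and summed to 36.3 and 31.0 CPM. In each group, 1 hairpin supplied most of the sum.

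**Figure D3:**
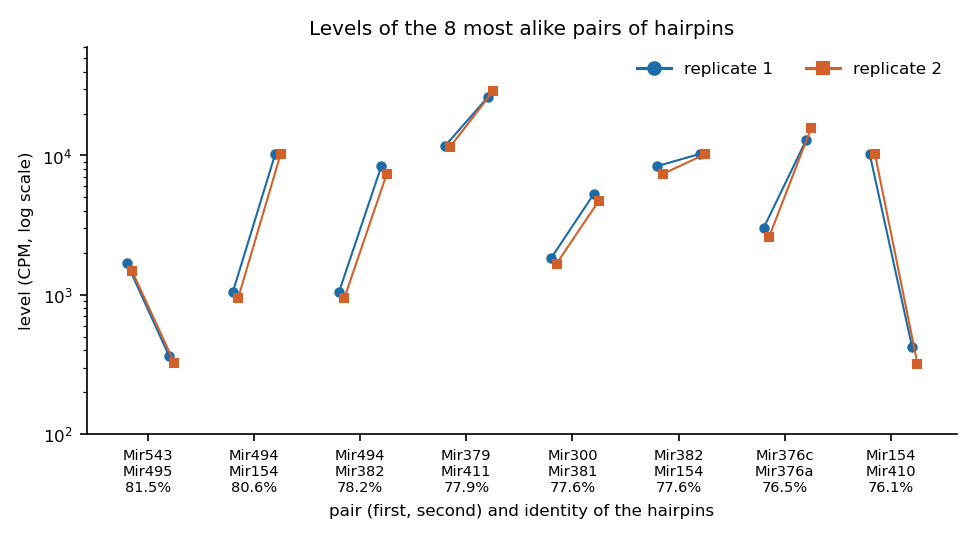
Levels in CPM (log scale) of the 8 pairs of hairpins with the highest sequence identity, given under each pair in percent; a line joins the 2 genes of a pair in replicate 1 (circles, blue) and replicate 2 (squares, orange). Lines within a pair run nearly parallel, and Mir154 to Mir410 is the steepest at 24.4-fold and 31.9-fold.

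Reads that match several places in the genome are outside the gene counts, which could lower members with copies elsewhere and makes the totals smaller. They made up 28.1% and 28.2% of all tallied reads in the libraries. No member had 50% or more of its stretches of 18 bases (words) in a second gene of the tables. Any shared word was found for Mir411 (6.15% of its words, with Mir758) and Mir758 (6.25%, with Mir411). Against all 2202 miRNA genes of the annotation, Mir376c (20.3%) and Mir487b (4.62%) also shared words, in both cases with Mir376b, a cluster gene without a row in the tables. How many reads of Mir376c and Mir487b this removed was not tested, and Mir376b is not analysed here.

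At Mir299a, part of the hairpin occurs on both of its own strands. The hairpin, at 109710638 to 109710700 on the plus strand, is shown with the 42 of 63 bases in capitals that lie in 18-base words found on both of its strands.
Mir299a hairpin: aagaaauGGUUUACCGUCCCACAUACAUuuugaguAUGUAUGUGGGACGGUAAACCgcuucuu
miR-299a-5p: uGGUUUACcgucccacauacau
miR-299b-5p: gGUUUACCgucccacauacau
Without its first base, miR-299a-5p occurs in full on the minus strand of the same hairpin, where miR-299b-5p is annotated. A read that begins at its second base matches both strands equally well. The counts of Mir299a, 23873 and 17475, therefore hold only reads that could be placed on the plus strand.

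The members read opposite a minus-strand row gave a large part of the cluster. Together Mir409, Mir376a, Mir380 and Mir299a held 246643 counts in replicate 1 and 201676 in replicate 2, which is 26.6% and 26.3% of the cluster. A table read by the annotated strand alone would hold none of these counts. On their annotated minus strand, the rows opposite Mir409, Mir376a and Mir380 had 0 counts in both libraries. Over all 34 plus-strand rows, the minus strand held 1 count in replicate 1 and 0 in replicate 2. The reads of the cluster were thus on the plus strand, with an exception at Mir299a given in the closing section.

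The 2 pools were compared to see how stable these levels are. For each row with 10 or more counts over both libraries, the counts were set against the libraries' share of the total in a two-sided exact binomial test with Benjamini-Hochberg adjustment over 443 rows, at a threshold of 0.05. The test compares these 2 libraries, not conditions, and covers counting error only, so abundant genes pass it at small differences. Of the 38 members, 35 could be tested. In replicate 2, 22 of them were lower (62.9%, where 27.3% of all tested rows were) and 4 were higher (11.4%, where 17.4% of all tested rows were). The other 9 passed in neither direction.

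Because the members are abundant, the same counts were taken among rows with a mean of 100 CPM or more. There, 20 of 30 members were lower in replicate 2 (66.7%), beside 52.7% of the 186 rows at that level, and 4 were higher (13.3%), beside 28.5%. The median log2 ratio of replicate 2 to replicate 1 was -0.19 over the 35 tested members and -0.08 over all tested rows. By size, 13 of the 35 tested members (37.1%) were lower by more than 1.2-fold, which is close to the 32.7% of all tested rows. That comparison was not limited by level, and rows with few counts can pass 1.2-fold by counting error. The share of members called lower was thus nearer to that of all rows once the level was limited, and the differences were small.

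Among members with a mean of 100 CPM or more, Mir323 had the largest drop, with 5873 counts in replicate 1 and 3673 in replicate 2. Its log2 ratio was -0.46 (counting SE 0.03, adjusted p = 5.13e-52 in the exact binomial test). Mir412 (-0.40, exact adjusted p = 2.25e-07), Mir134 (-0.40, 9.91e-64) and Mir410 (-0.39, 3.43e-17) followed. Mir323 lies before the start of Mirg and the other 3 within it, where Mir412 and Mir410 are both near Mir369.

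The 4 members higher in replicate 2 were Mir376a, Mir539, Mir411 and Mir541. Mir376a had a log2 ratio of 0.30, Mir539 of 0.16 (exact binomial adjusted p = 0.0408), Mir411 of 0.14 (4.95e-165) and Mir541 of 0.13 (4.04e-42). Of the members called, 84.6% were lower, so most pairs of called members would both be lower wherever they lie. Among 19 neighbouring pairs with both members called, both were lower in 15 and the directions were opposite in 4. As examples of the latter, Mir541 was higher in replicate 2 while Mir409, 659 bases further on, was lower with a log2 ratio of -0.32. Mir411 was higher while Mir299a, 381 bases further on, was lower with a log2 ratio of -0.23 (exact binomial adjusted p = 9.98e-59). Each of these directions rests on 1 library per side.

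The call of some members depended on the scaling. With TMM or DESeq2 size factors, which moved the median log2 ratio of all tested rows up by 0.08 and 0.07, 21 members were lower and 7 higher. Mir495 lost its lower call, and Mir379, Mir380 and Mir154 became higher in replicate 2. No member went from lower to higher or the reverse.

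**Figure D4:**
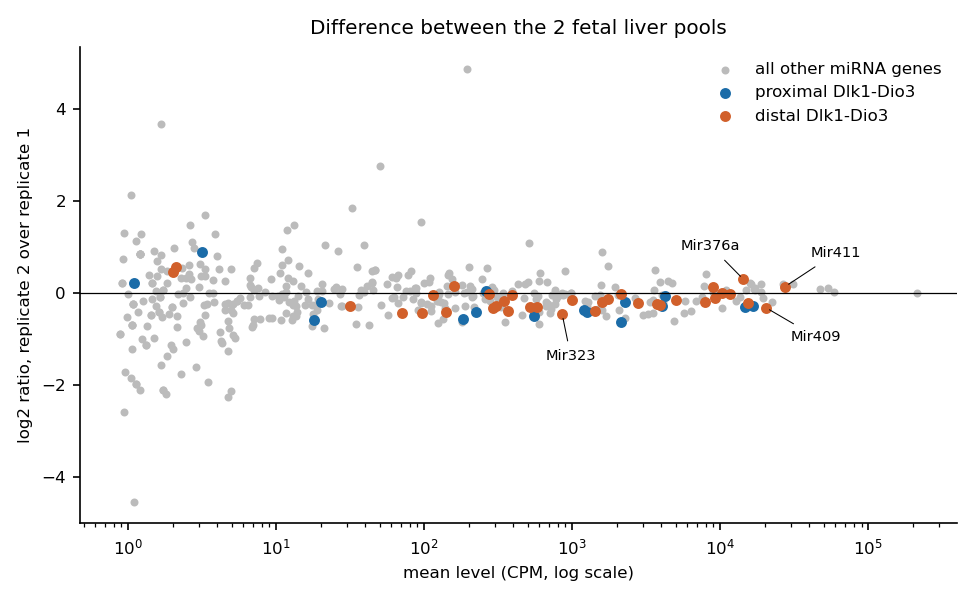
Log2 ratio of replicate 2 to replicate 1 against mean level in CPM (log scale) for the 443 tested rows, with the distal cluster in orange, the proximal Dlk1-Dio3 genes in blue and all other rows in grey. Most members at 100 CPM or more sit slightly below 0, with Mir376a and Mir411 above it and Mir323 lowest among them.

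Markers of other cell types also differed between the pools. The 4 epithelial miRNAs (Mir200b, Mir200c, Mir429 and Mir141) were all higher in replicate 2, with a summed level of 4103 CPM in the first library and 6135 CPM in the second. The 2 muscle miRNAs summed to 1119 and 2062 CPM, with Mir206 higher. Mir133b, at 14.8 and 12.2 CPM, passed in neither direction. The 2 erythroid miRNAs summed to 23344 and 26692 CPM, both higher. The 3 mesenchymal miRNAs summed to 16068 and 18143 CPM, with 2 higher and 1, Mir214, lower. The 3 hepatocyte miRNAs summed to 218420 and 220340 CPM, with 2 higher, the endothelial Mir126a stood at 45470 and 48546 CPM and was higher, and the 2 leukocyte miRNAs summed to 16793 and 17555 CPM, with 1 higher. Of the 4 neural miRNAs, Mir137 was higher, at 25.6 and 53.1 CPM, and Mir132, at 88.4 and 80.7 CPM, passed in neither direction. Mir124a-1 and Mir9-2 were at 0, but both have further gene copies with the same mature sequence, and reads that match several copies are outside the counts, so their 0 does not show that the miRNAs were absent. Their part in the members' differences was not tested.

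The proximal Dlk1-Dio3 miRNAs lie before the distal cluster, around Rtl1 and Rian, in the same imprinted domain. They comprise 20 rows between 109544541 and 109682273, of which 16 were detected at 1 CPM in both libraries. Their 3 most abundant genes, Mir127 (16637 ± 2231 CPM), Mir431 (14632 ± 2148 CPM) and Mir434 (4226 ± 129 CPM), lie antisense to Rtl1. The last place is not settled, since Mir337 (4068 ± 549 CPM) was above Mir434 in replicate 1 and below it in replicate 2. The median of their detected rows was 878 CPM, near the 995 CPM of the detected distal members, and 2 of the 20 reached 10000 CPM in both libraries.

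The distal cluster held 2.99-fold the counts of the proximal genes in replicate 1 and 3.49-fold in replicate 2 (3.24 ± 0.36, SD, n = 2). The proximal share of the gene-strand total was 5.24% in replicate 1 and 4.30% in replicate 2. One proximal row, opposite Mir136, is ambiguous in strand: it held 13 and 21 counts on the strand read as Mir136 and 8016 and 8235 on its annotated strand. With the latter counts used, the ratio was 2.91 and 3.37. In the exact binomial test, 12 of the 16 tested proximal genes were lower in replicate 2 (75%, where 27.3% of all tested rows were). Of these 16, 0 were higher (where 17.4% of all tested rows were), and the median log2 ratio was -0.29. With the row opposite Mir136 read on its annotated strand, where it held 1352 and 1614 CPM, 12 were lower and 1, that row, was higher (log2 ratio 0.26, exact binomial adjusted p = 8.72e-29). At a mean of 100 CPM or more, where that row read as Mir136 falls out, 11 of 12 proximal genes were lower (91.7%). Of all rows at that level, 52.7% were lower. The median log2 ratio at that level was -0.34 for the proximal genes and -0.18 for the distal members. Mir127 and Mir431 were among the lower proximal genes, and the difference between the proximal and distal sets was not tested.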

How the data were processed

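MicroRNA sequencing counts of 2 libraries of 1 group were used, grouped from the source label with replicate numbers taken from the description. The authors deposited raw counts per row for assembly mm10 and GENCODE annotation M4, per the deposited text description. No aligner, counter or use of molecular identifiers is named, so these steps count as not given in the sources used here. Each table holds 3 columns of counts (both strands, gene strand, opposite strand), told apart from their values. The libraries tallied 14129766 and 12186088 reads. The 4 tally rows were left out.

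The members and lists were chosen with earlier results of these data known. Positions and names came from GENCODE M21 on the same assembly, by identifier without version (1894 of 1973 rows matched). Since M4 was not used here, a row's strand could differ from the one used in counting. Sequences came from RefSeq.

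CPM were computed over the gene-strand total. Log2 ratios used counts plus 0.5, and hairpins were compared by global alignment (Biopython 1.88). No quasi-likelihood test was fitted, since 1 group gives no contrast. The exact binomial test (SciPy 1.17.1) was tested on simulated counts of 444 rows for replicate 2 against replicate 1: calls were made for 55.1% of 49 rows set to a 1.2-fold change, for 97.78% of 45 set to 4-fold, and for 7 of 252 unchanged ones. Scaling alternatives used edgeR 4.0.16 and DESeq2 1.42.0. The labels call the replicates biological without saying how the pools were separated.

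Named with values were the 12 most abundant members, those read opposite a minus-strand row, those sharing a seed, those under 1 CPM, and, at 100 CPM or more, the 4 that rose and the 4 that fell most between the libraries. The 3 highest proximal genes were named too. Other members were given to account for all 38.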

Additional observations from a re-analysis of the deposited data

Results flagged for a closer look

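Counts on the minus strand at Mir299a, where Mir299b is annotated, came to 48 in replicate 1 and 45 in replicate 2. They stand outside the member levels, were above the 3 counts that a count of 0 allows, and were marked for that reason. Over all 34 plus-strand member rows the minus strand held 1 count in replicate 1 and 0 in replicate 2. The same hairpin had 23873 and 17475 counts on its plus strand, and it is the single member with 18-base words found on both of its strands (17.4% of its words). Whether the minus-strand reads come from Mir299b or from plus-strand molecules placed on the wrong strand was not tested.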

How the results depend on the processing

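The mean share of the cluster, 15.3% of the gene-strand total, became 14.1% of the both-strand total, 14.7% of a total in which the member minus-strand rows were replaced, and 19.5% of a total without Mir122. It was 11.3% without the minus-strand rows, and leaving them out also moved the distal to proximal ratio to 2.38 and the part held by the 12 most abundant members to 93.8%. These shifts follow from the totals and rows used. With 1 library left out, the share ran from 15.0% to 15.6%, the ratio from 2.99 to 3.49 and the part of the 12 members from 89.5% to 90.6%. TMM and DESeq2 scaling each raised the members higher in replicate 2 from 4 to 7 and moved the members' median log2 ratio to -0.11. The count of lower members ran from 20 to 22 over every filter, scaling and row choice tried. A limit of 100 CPM on the mean, and the other reading of the row opposite Mir136, were chosen after seeing the data. Of 84 alternative levels of the 12 most abundant members, 64 stayed within 1 SD, and 12 of the 20 that moved did so without Mir122 in the total. With 2 libraries, the level in either one alone always lies within 1 SD of the mean. TMM and DESeq2 scaling shift the libraries in opposite directions and so nearly keep the mean. The number that stayed is therefore no measure of how stable the levels are. No paired analysis was possible because there is 1 group. Depth limits members under about 3 counts, and 2 pools of livers limit every other statement on spread.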
